A study of Caenorhabditis elegans with 2 samples.

Results

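The genes described are the snoRNA genes of the nematode Caenorhabditis elegans that lay at a peak of the transcription factor CEH-24 tagged with GFP. They were chosen by a measured value, the position of a peak: a snoRNA gene of the Ensembl annotation was a member where the summit of at least 1 peak of the pooled list lay within 250 bp of it. This held for 129 of 346 snoRNA genes. Every gene kind in the annotation was measured in the same peak lists. The same condition was met by 32.9% of all 46890 nuclear genes and by 37.3% of snoRNA genes, so membership alone is near that overall share. The overall share mixes genes of unlike length. Protein-coding genes (median 2027 bp) met the condition in 51.2% and ncRNA genes (median 140 bp) in 26.7%. A smaller set of 43 snoRNA genes had a summit of the optimal list within 250 bp, and 1.07% of all nuclear genes did. These 43 genes are called optimal-peak genes below, the other 86 members are called lower-peak genes, and the 217 remaining snoRNA genes had no pooled peak.

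CEH-24 is a homeodomain protein of the NK-2 class. Chromatin immunoprecipitation and sequencing was done, per the description in the labels, with an antibody against GFP (the antibody field names ceh-24) on sonicated chromatin of strain OP673, whose genotype is unc-119(tm4063) III; wgIs673 and which carries CEH-24 with GFP and FLAG at its C terminus. The animals were whole late embryos of mixed sex, taken 5 h after synchronization by egg bleaching, in 2 biological replicates of 1 group. Every sample carried the transgene, no second condition was measured, and whole animals were used, so recovery in a few cells and weak recovery in many cells cannot be told apart.

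Small nucleolar RNAs pair with ribosomal and spliceosomal RNA and direct its chemical modification. Box C/D RNAs guide 2′-O-methylation by fibrillarin and box H/ACA RNAs guide pseudouridylation by dyskerin. Many are cut from introns of a host transcript, while others have promoters of their own. RNA polymerase III reads tRNA genes through internal elements, the A box and the B box, which are bound by TFIIIC, and it stops at a run of T in the coding strand. Some nematode snoRNA genes carry elements of the same kind just before the mature RNA.

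Most summits of the optimal-peak genes lay just before the mature RNA, so the sequence there is shown first. The B box was searched as GTTCNANNC and the A box as TGGNNNANNNG, where N is any base. A pair was an A box followed on the strand of the gene by a B box that started 25 to 80 bp further on, within 200 bp upstream to 50 bp downstream of the annotated 5′ end. The letters of the A box were chosen after the sequences of the highest genes had been read. Each sequence runs 5′ to 3′ on the strand of the snoRNA gene, from 100 bases upstream through the first 10 bases of the annotated RNA, on build ce11 (WBcel235), and capitals mark the A box and then the B box. The first set shows genes with the pair and with their highest peak in the optimal list: W03C9.9 at chrII:11960798-11960907 (+), C51F7.3 at chrV:12303608-12303717 (+), T03F7.8 at chrV:11314158-11314267 (+), F32E10.10 at chrIV:7574022-7574131 (+), Y43F8C.22 at chrV:19643178-19643287 (-), F55A11.10 at chrV:11782892-11783001 (+) and C05D2.15 at chrIII:5602170-5602279 (-).
W03C9.9: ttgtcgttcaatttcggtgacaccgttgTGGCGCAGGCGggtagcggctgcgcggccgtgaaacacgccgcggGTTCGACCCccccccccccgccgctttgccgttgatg
C51F7.3: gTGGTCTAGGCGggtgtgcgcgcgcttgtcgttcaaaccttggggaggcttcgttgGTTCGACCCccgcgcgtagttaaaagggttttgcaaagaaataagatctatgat
T03F7.8: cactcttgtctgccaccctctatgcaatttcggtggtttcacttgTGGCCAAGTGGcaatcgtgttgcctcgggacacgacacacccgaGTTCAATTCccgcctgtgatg
F32E10.10: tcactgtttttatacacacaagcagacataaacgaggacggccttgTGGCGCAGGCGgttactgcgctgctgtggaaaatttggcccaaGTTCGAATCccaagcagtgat
Y43F8C.22: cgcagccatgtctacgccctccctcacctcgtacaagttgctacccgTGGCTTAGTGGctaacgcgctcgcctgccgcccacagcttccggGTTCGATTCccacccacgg
F55A11.10: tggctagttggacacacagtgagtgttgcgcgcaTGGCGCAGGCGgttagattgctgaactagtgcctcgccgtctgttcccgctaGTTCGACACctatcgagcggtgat
C05D2.15: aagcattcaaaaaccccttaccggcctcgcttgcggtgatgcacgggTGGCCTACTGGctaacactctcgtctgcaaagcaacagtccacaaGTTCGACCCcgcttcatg

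In C51F7.3 a further B box match, left in lower case, lies between the boxes in capitals. The distance from the start of the A box to the start of the B box was 45 bp in W03C9.9, 44 bp in T03F7.8, 43 bp in F32E10.10, 44 bp in Y43F8C.22 and 45 bp in C05D2.15. It was longer in F55A11.10, at 52 bp, and in C51F7.3, at 55 bp between the boxes in capitals. The A box began between -53 and -55 bp from the 5′ end in T03F7.8, F32E10.10, Y43F8C.22 and C05D2.15, and farther upstream in F55A11.10 (-66 bp), W03C9.9 (-72 bp) and C51F7.3 (-99 bp). F32E10.10 and W03C9.9 are intergenic, T03F7.8 lies in an intron of the opposite-strand gene cutl-18, and Y43F8C.22, F55A11.10 and C05D2.15 lie in introns of genes read on the same strand.

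A second set has an A box and, at a similar distance, a B box with 1 of its fixed letters changed: T06C12.16 at chrV:15873917-15874026 (-) and F38E11.14 at chrIV:9477690-9477799 (-).
T06C12.16: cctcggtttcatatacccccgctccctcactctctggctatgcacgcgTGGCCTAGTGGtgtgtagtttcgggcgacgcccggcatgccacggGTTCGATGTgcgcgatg
F38E11.14: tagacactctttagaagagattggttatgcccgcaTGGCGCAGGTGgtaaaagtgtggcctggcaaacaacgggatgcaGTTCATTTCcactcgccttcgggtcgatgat

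The third set holds no pair in the window. ZK994.7 had the highest signal of all, B0334.12 and D1046.6 were among the 10 highest on the chromosomes shown, and F54E7.10 and F28D1.13 had the highest signals in introns of ribosomal protein genes there. Their windows are ZK994.7 at chrV:8500479-8500588 (+), B0334.12 at chrII:11484583-11484692 (+), D1046.6 at chrIV:8927165-8927274 (+), F54E7.10 at chrIII:5679278-5679387 (+) and F28D1.13 at chrIV:12390646-12390755 (-).
ZK994.7: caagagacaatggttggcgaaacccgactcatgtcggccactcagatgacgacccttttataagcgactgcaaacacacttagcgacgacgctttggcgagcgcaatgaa
B0334.12: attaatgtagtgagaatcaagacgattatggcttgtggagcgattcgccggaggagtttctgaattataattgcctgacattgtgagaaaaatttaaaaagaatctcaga
D1046.6: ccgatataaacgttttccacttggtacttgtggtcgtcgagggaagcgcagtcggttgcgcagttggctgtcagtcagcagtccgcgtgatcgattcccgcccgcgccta
F54E7.10: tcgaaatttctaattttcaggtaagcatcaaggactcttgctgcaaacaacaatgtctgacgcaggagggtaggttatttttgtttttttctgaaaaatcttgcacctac
F28D1.13: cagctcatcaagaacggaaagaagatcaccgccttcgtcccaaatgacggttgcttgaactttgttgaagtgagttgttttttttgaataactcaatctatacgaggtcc

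The signal at the members spanned more than an order of magnitude. Signal values are those the authors gave their peaks, and they rank peaks within 1 list. Values from different lists are printed side by side with no comparison of their size. The pooled value had a median of 203.5 over the 43 optimal-peak genes (range 107 to 556.5) and of 45.4 over the 86 lower-peak genes (25.9 to 97.9). Over all 30000 pooled peaks the median was 34.7. These values chose the members and divided them, so they are a description.

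**Figure D1:**
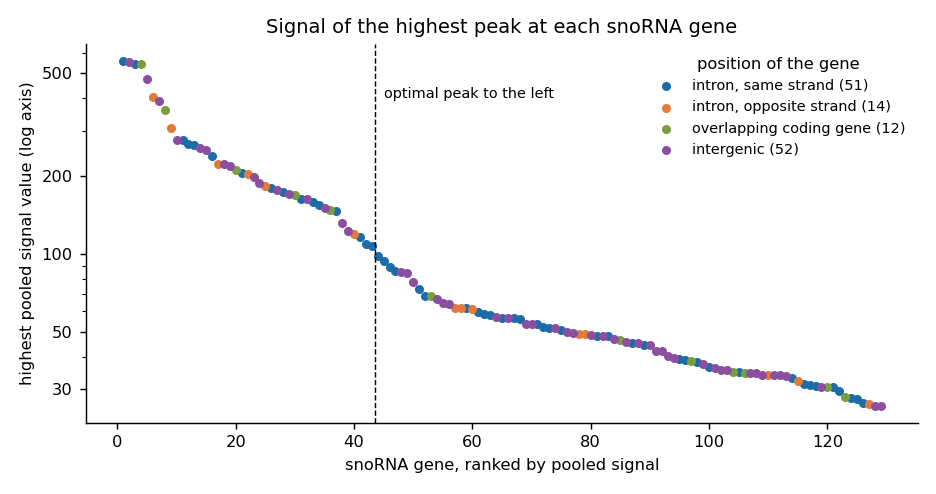
The highest pooled signal value (vertical, log axis, arbitrary units of the deposited list) of each of the 129 members, ranked from high to low, with colours for the position of the gene relative to protein-coding genes. The 43 genes left of the dashed line had an optimal peak, and all 4 positions occur on both sides of it.

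The highest member was ZK994.7, in an intron of pxn-1, which encodes a peroxidasin of the basement membrane. Its pooled signal was 556.5, with 284 in replicate 1 and 271 in replicate 2, and the summit lay 1 bp before the 5′ end. This was also the highest signal in the whole pooled list. W03C9.9, an intergenic C/D gene, had 551 in the pool, 277 in replicate 1 and 286 in replicate 2. C51F7.3 and C51F7.4 shared 1 peak of 542 (277 in replicate 1 and 252 in replicate 2) inside frm-7, a gene for a FERM domain protein. C51F7.4 ends just before C51F7.3 begins and holds the boxes that precede C51F7.3, so the 43 optimal-peak genes had 42 different highest peaks. T06C12.16, intergenic, followed with 476 in the pool, 241 in replicate 1 and 244 in replicate 2. At these genes both replicates were high.

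Below them came T03F7.8 with a pooled signal of 403 (220 and 191 in replicates 1 and 2). ZK265.10, intergenic and with an A box but no B box, had 390 (215 and 165). T02E1.9, which overlaps spe-12, a gene of sperm activation, had 360 (178 and 184). All 3 had a peak in both replicate lists. B0334.12 lies in an intron of the opposite-strand gene twk-5, which encodes a potassium channel, and had 308 (179 and 133). Its summit was 148 bp downstream of its 5′ end, beyond the gene, and it was the only optimal-peak gene whose summit window held a pair on the opposite strand. F32E10.10 had 277 (162 and 123), Y43F8C.22 had 275 (149 and 127) and D1046.6 had 267 (107 and 162). D1046.6 lies in an intron of cfim-2, which encodes a subunit of a cleavage factor for mRNA 3′ ends.

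The highest genes of each position add to this list. In same-strand introns F38E11.14, in cng-3, a gene for a cyclic nucleotide-gated channel, had 263. In opposite-strand introns C04G6.12 had 223 within mpk-2, a MAP kinase gene, ZK484.9 had 204 within haf-9, and C27H5.9 had 183 within pdl-1. Among genes that overlap a protein-coding gene without lying wholly in an intron, T27A3.9 had 211, W01C9.6 had 169.5 within glb-27, a globin gene, and F39B2.14 had 148 beside tmem-107. The F39B2.14 summit was 40 bp from a protein-coding start. Among intergenic genes T19B4.8 had 256. W03C9.9, T06C12.16, T02E1.9 and W01C9.6 each had 2 optimal peaks within 250 bp.

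The optimal list was made from these same replicates, by their reproducibility, and it holds the 276 highest peaks of the pool. Agreement of the replicates at the optimal-peak genes is therefore part of how they were chosen, and the values that follow are a description. A replicate 1 peak lay within 250 bp of 42 of the 43 genes and a replicate 2 peak within 250 bp of 42. Among the 276 highest peaks of the replicate, the size of the optimal list, were 38 genes in replicate 1, 41 in replicate 2 and 37 in both. K11C4.6, in an intron of the beta-spectrin gene unc-70, had no replicate 1 peak but a pooled signal of 159 and a replicate 2 signal of 102. Y17G7B.25 had no replicate 2 peak but 123 in the pool and 77.0 in replicate 1. Across the 41 optimal-peak genes with both values the Spearman correlation of the replicate signals was 0.80, and across the 35 lower-peak genes with both it was 0.42. These are descriptions over genes that share libraries and 1 control file. Of all 129 members 76 had a peak in both replicates and 8 in neither.

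**Figure D2:**
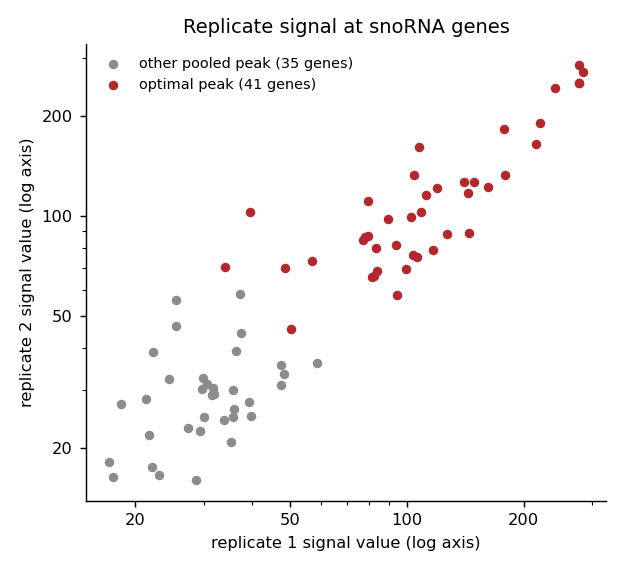
Signal value in replicate 1 (horizontal) and replicate 2 (vertical), both on log axes, for the 41 optimal-peak genes and 35 lower-peak genes that had a peak in both replicate lists. Each point is 1 gene, and most optimal-peak genes lie to the upper right, with overlap on both axes: the optimal-peak gene T08B2.13 had 33.9 in replicate 1 and T04A8.17 had 45.6 in replicate 2, below the lower-peak genes Y37E3.20 (58.6 in replicate 1) and C14C10.8 (58.2 in replicate 2).

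At the edges of the rules the values ran close together. The optimal-peak genes with the lowest signals were Y49E10.36, in an intron of the histone H3.3 gene his-72, with 109, and T08B2.13, in an intron of fars-1, a phenylalanyl-tRNA synthetase gene, with 107. Just below were C14C10.8 in ril-2 with 97.9 and Y37E3.20 in pcyt-2.1 with 94.0. T08B2.13 holds a pair, ranked 2901 in replicate 1 (33.9) and had 70.3 in replicate 2. The members farthest from their summits were B0041.9, in an intron of rpl-4, at 247 bp with a pooled signal of 88.6, and F59G1.14, in an intron of cgt-3, at 233 bp with 30.4. Neither had a peak in a replicate list, and the summits lay 63 bp (B0041.9) and 7 bp (F59G1.14) from a protein-coding start. Just outside were C18D1.21, M7.15 and T08H4.9, each 253 bp from the nearest summit.

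Summits of the optimal-peak genes gathered just before the mature RNA. They lay upstream of the 5′ end in 36 of 43 genes, inside the gene in 6 and downstream of it in 1. The median position was -44 bp (quartiles -65.5 and -8.5), and 37 genes (86.0%) had the summit between 100 bp upstream and 20 bp downstream of the 5′ end. The lower-peak genes showed no such concentration. Their summits were upstream in 40 of 86, inside in 26 and downstream in 20, with a median of 8 bp (quartiles -94 and 169.5), and 29.1% lay in the same stretch. The rule admits any position within 250 bp, and it sets no side. Lower-peak genes were also longer, with a median of 130.5 bp against 75 bp, so their summits had more room inside the gene. No test of this difference was made.

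**Figure D3:**
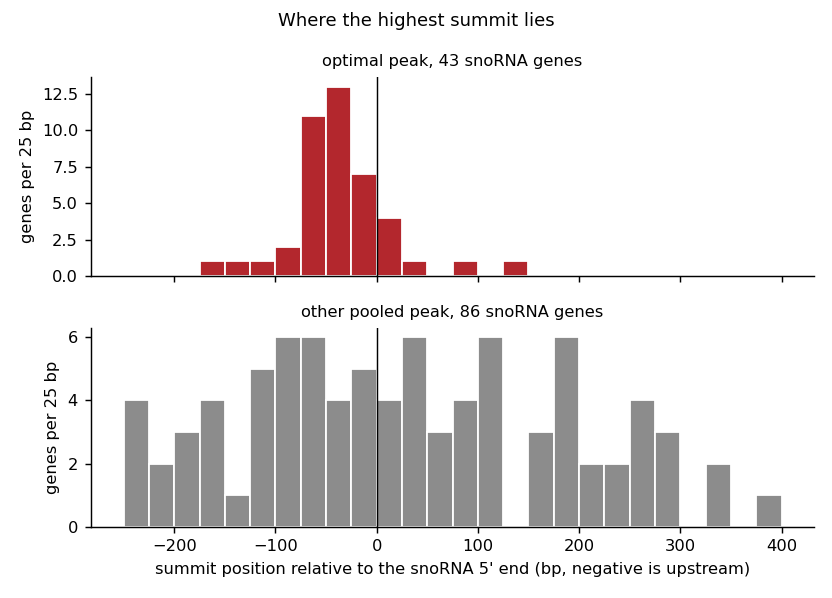
Number of genes per 25 bp by the position of the highest summit relative to the annotated 5′ end (horizontal, bp, negative is upstream) for the 43 optimal-peak genes (top) and the 86 lower-peak genes (bottom). The optimal-peak summits crowd around the median of -44 bp, while the others spread from -247 to 394 bp.

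The box pair was more frequent in the optimal-peak genes than in the other snoRNA genes. Sequence was not used to choose members. The letters of the A box were chosen after the highest of these genes had been read, so the contrast is in part set by that choice and is a description. It was present in 22 of 43 optimal-peak genes (51.2%, Wilson 95% interval 36.8 to 65.4), in 3 of 86 lower-peak genes (3.49%, 1.19 to 9.76) and in 2 of 217 genes without a pooled peak (0.922%, 0.253 to 3.30). The same stretch around protein-coding gene starts held it in 26 of 19973 (0.130%). A stretch of equal length around the pooled peaks outside the optimal list held it on either strand in 1.12%. These intervals cover counting error over genes only, and genes are not replicates. With the B box allowed 1 changed letter, the pair was in 31 optimal-peak genes (72.1%), 9 lower-peak genes (10.5%) and 12 genes without a peak (5.53%), against 1.73% of protein-coding starts.

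Each box was also counted alone. A B box on either strand was in 24 optimal-peak genes (55.8%, 41.1 to 69.6), 14 lower-peak genes (16.3%, 9.95 to 25.5) and 19 genes without a peak (8.76%, 5.68 to 13.3). Protein-coding starts held it in 7.12% and windows at pooled peaks outside the optimal list in 8.40%. The A box on the strand of the gene was in 32 optimal-peak genes (74.4%), 18 lower-peak genes (20.9%) and 48 genes without a peak (22.1%), against 11.4% of protein-coding starts. The lower-peak genes thus held the A box about as often as snoRNA genes with no peak. The share in optimal-peak genes is in part set by the choice of the A box letters from the highest of them.

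Read the other way, 27 snoRNA genes held the pair, of which 22 (81.5%, 63.3 to 91.8) had an optimal peak and 25 a pooled peak. Of the 319 genes without it, 21 (6.58%, 4.35 to 9.85) had an optimal peak. The letters of the A box were read from the highest of these same genes, so both shares are in part set by that choice. The 5 genes with a pair outside the optimal list were H04D03.5 (pooled signal 61.8), ZK546.18 (59.3), R166.7 (48.03), and Y59E1B.14 and Y6B3B.15, which had no pooled peak. H04D03.5, ZK546.18, R166.7 and Y59E1B.14 have the box letters of H/ACA RNAs. Among the 22 optimal-peak genes with the pair the median pooled signal was 212 (range 107 to 551), and among the 21 without it 181 (109 to 556.5). These ranges overlap, but pooled signal also set the lower limit of both groups, so the values are a description. The 21 include 9 genes that hold the pair with 1 letter of the B box changed. Whether the pair goes with the level of signal was not tested.

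The pair lay at a steady distance. Across the 27 genes the A box began at a median of -58 bp and the B box at -14 bp from the 5′ end, and the distance between the starts had a median of 44 bp (quartiles 44 and 45, range 29 to 55). It was 43 to 46 bp in 22 of them. Both ends of the range came from 1 locus, because C51F7.4 (29 bp) and C51F7.3 (55 bp) share the same A box. In tRNA genes, where 367 of 612 held the pair inside the gene, the median was also 44 bp (quartiles 44 and 46). Where a snoRNA gene held more than 1 pair, the pair with the distance closest to this tRNA median was taken. In tRNA genes the shortest distance was taken. The likeness of the distances is therefore in part a product of that choice. In 17 of the 22 optimal-peak genes with the pair the summit fell between 20 bp before the A box and the end of the B box, with a median of 23 bp after the A box start. Of the 21 optimal-peak genes without the exact pair, 9 had it with 1 letter of the B box changed. The other 12 had neither, among them ZK994.7, ZK265.10, D1046.6 and B0334.12. The A box had to match exactly in both searches, so these 12 genes may still hold similar elements. The D1046.6 window, for example, holds a B box with 1 letter changed but no exact A box.

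**Figure D4:**
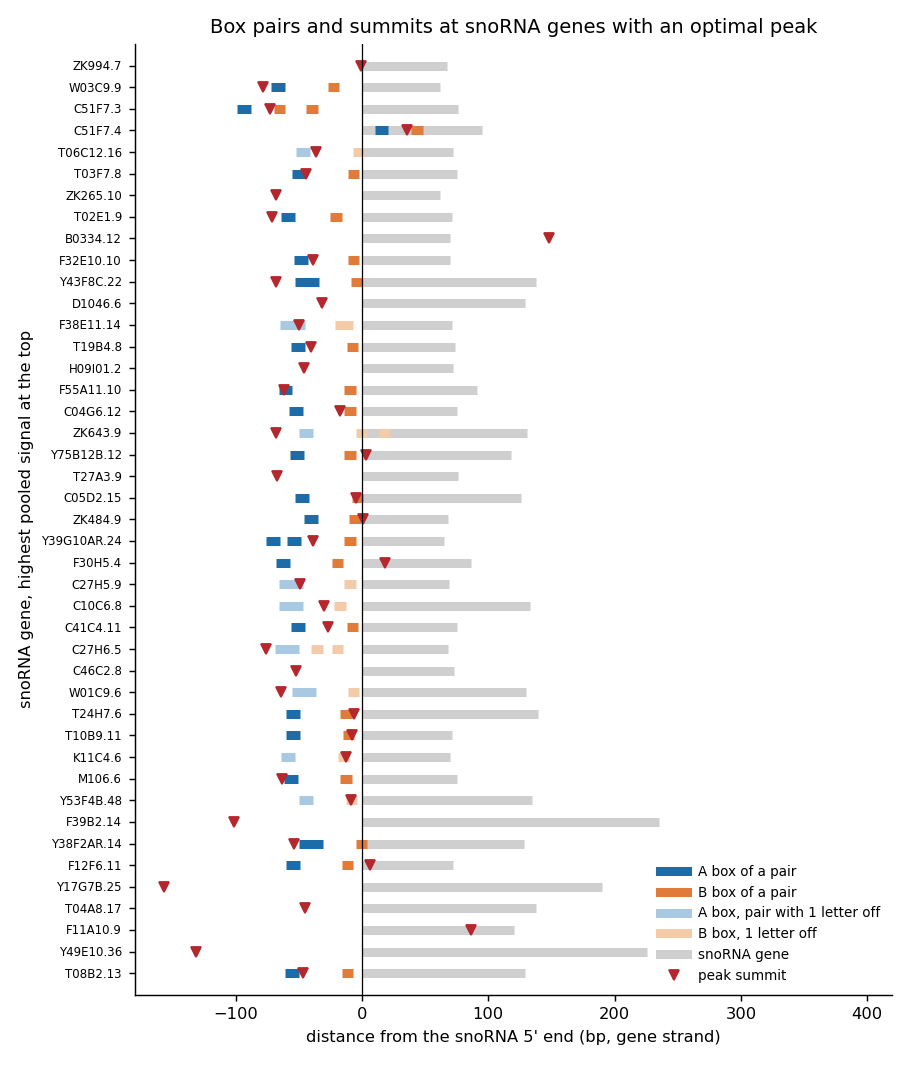
The 43 optimal-peak genes from the highest pooled signal (top) to the lowest, with the snoRNA gene in grey, the boxes of each pair in blue and orange (pale where 1 letter of the B box is changed) and the summit as a red triangle, all by distance from the 5′ end (horizontal, bp). In most genes with a pair the blue box begins about 58 bp and the orange box about 14 bp before the gene, with the summit near or between them.

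A run of T followed the mature RNA in most optimal-peak genes. TTTT on the strand of the gene, from the last 4 bases of the gene to 30 bp after it, was found in 39 of 43 (90.7%, 78.4 to 96.3), in 44 of 86 lower-peak genes (51.2%, 40.8 to 61.4) and in 124 of 217 genes without a peak (57.1%, 50.5 to 63.5). The same stretch at the ends of protein-coding genes held it in 54.5%. The optimal-peak genes without it were B0334.12, F30H5.4, Y17G7B.25 and Y49E10.36, of which F30H5.4 holds the pair. With a run of 5 the shares were 69.8%, 32.6% and 24.0%. This motif too was chosen after the highest genes had been read.

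**Figure D5:**
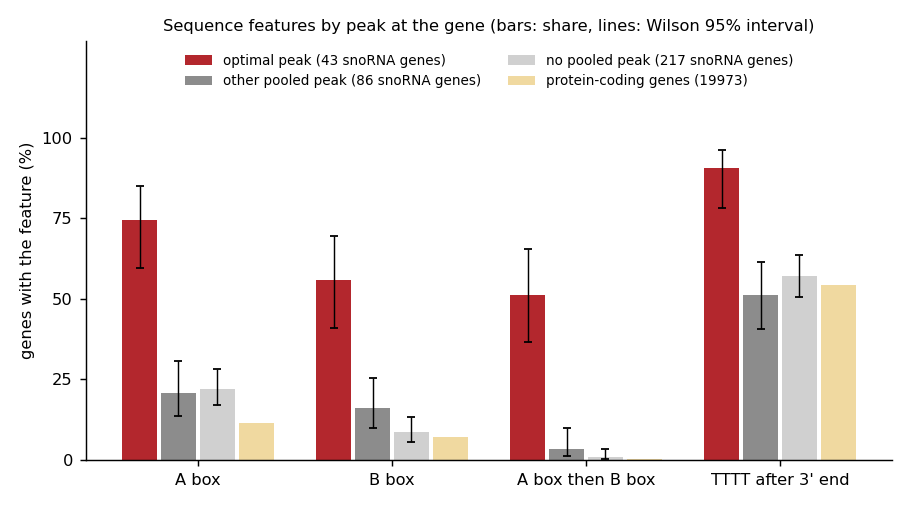
Share of genes (vertical, %) that hold each sequence feature, for optimal-peak genes, lower-peak genes, snoRNA genes without a pooled peak and protein-coding genes, with Wilson 95% intervals for the snoRNA groups. The optimal-peak bars stand at 74.4%, 55.8%, 51.2% and 90.7%, each above the intervals of both other snoRNA groups. The A box letters and the run of T were chosen after the highest optimal-peak genes had been read, so the bars are a description.

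The site of the NK-2 class, TNAAGTG on either strand, was also counted at these summits. It lay within 100 bp of the summit in 2 of 43 optimal-peak genes (4.65%, 1.28 to 15.5), C46C2.8 and T04A8.17, and in 5 of 86 lower-peak genes (5.81%, 2.51 to 12.9). Pooled peaks outside the optimal list held it in 9.11%, a share inside both intervals. A window without these letters says nothing on whether the factor bound there.

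The share of genes with a peak was set beside the position of the gene relative to protein-coding hosts. An optimal peak was found at 16 of 150 genes in same-strand introns (10.7%, 6.67 to 16.6), 6 of 28 in opposite-strand introns (21.4%, 10.2 to 39.5), 5 of 44 that otherwise overlap a protein-coding gene (11.4%, 4.95 to 24.0) and 16 of 124 intergenic genes (12.9%, 8.10 to 19.9). The intervals overlap. Pooled peaks lay at 51 (34.0%), 14 (50%), 12 (27.3%) and 52 (41.9%) of them. The pair was in 8 of the 16 same-strand and 9 of the 16 intergenic optimal-peak genes. For all 22 intronic optimal-peak genes the summit lay in the intron that holds the snoRNA gene, and of their 16 same-strand members 4 had a summit within 500 bp of a protein-coding start.

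Hosts of the same-strand optimal-peak genes were 16 different genes, and none encoded a ribosomal protein. Introns of rpl and rps genes held 19 snoRNA genes in 13 hosts on the same strand. Of these 0 had an optimal peak, which allows a share of up to 15.8% (3 counts of the total, a rule apart from the Wilson intervals), and 4 had a pooled peak. A B box was in 1 and the pair in 0 of the 19. F54E7.10 in rps-12 was among the 4 with a pooled peak, with its summit 161 bp upstream and 81 bp from a protein-coding start. Of the 131 snoRNA genes in other same-strand introns 16 had an optimal peak.

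By the letters of their own boxes, 43 snoRNA genes were C/D, 72 were H/ACA and 231 fitted neither set. Box C was TGATGA with 1 change allowed in the first 20 bases and box D was CTGA in the last 20. An H/ACA gene had ACA near its 3′ end and more than 100 bases. An optimal peak lay at 13 C/D genes (30.2%, 18.6 to 45.1), 10 H/ACA genes (13.9%, 7.72 to 23.7) and 20 of the others (8.66%, 5.67 to 13.0). The pair was in 10 C/D, 8 H/ACA and 9 other genes. Optimal-peak genes were short, with a median length of 75 bp, against 130.5 bp in lower-peak genes and 133 bp in genes without a peak.

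Chromosome X held 33 snoRNA genes, of which 0 had an optimal peak, which by the same rule allows up to 9.09%, and 6 (18.2%, 8.61 to 34.4) had a pooled peak. The highest of these was D2021.6 at 56.4. Over all genes of X 2.18% had an optimal peak and 39.3% a pooled peak. An optimal peak lay at 55 of the 276 tRNA genes of X (19.9%). Of the 33 snoRNA genes 1 held the pair, Y59E1B.14, and it had no pooled peak. The autosomes carried 5 to 11 optimal-peak genes each.

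Compared with other small RNA genes, the share of snoRNA genes with an optimal peak (12.4%, 9.36 to 16.3) lay below that of tRNA genes (16.2%, 13.5 to 19.3), and above that of snRNA genes (4.65%, 2.15 to 9.78), with overlapping intervals in both cases. It was above that of miRNA genes (1.15%, 0.392 to 3.32), whose interval does not overlap. A pooled peak with a q-value of at most 0.05, as deposited, lay at 47 snoRNA genes (13.6%), against 1.45% of all nuclear genes. Gene length bears on these shares. An interval of 130 bp, the median snoRNA length, would have a pooled summit within 250 bp at 16.9% of genome positions and an optimal summit at 0.168%. No optimal-peak summit was within 250 bp of a tRNA, snRNA or rRNA gene, and 4 were within 250 bp of a protein-coding start. The 36-base words around the summit occurred once in the genome in 42 of 43 genes, and in the exception, ZK643.9, 94.0% did.

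Proteins that work with snoRNAs were looked up as genes of the pathway. Of 11 genes for snoRNA-bound proteins and their assembly factors, 9 had a pooled peak within 1000 bp of a start, against 49.9% of protein-coding genes, and 0 had an optimal peak, against 1.11%. The highest was Y48A6B.3, with a pooled signal of 61.5, while fib-1, the gene for fibrillarin, had 28.3 and dkc-1, for dyskerin, had 46.8. A list of 14 genes for RNA polymerase III subunits and factors held no gene for TFIIIC. Of these 14 genes 5 had a pooled peak and 0 an optimal peak, against the same 49.9% and 1.11%. The highest was rpac-19, a subunit shared by RNA polymerases I and III, with 68.6.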

How the data were processed

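ChIP-seq peak lists of 2 replicates of 1 group were used on build ce11, which is assembly WBcel235. Per the file headers, the authors deposited a relaxed peak list per replicate and for the pool, and an optimal list of the peaks retained at an irreproducible discovery rate. The signal value of each peak, its −log10 q-value and the offset of its summit are the authors' own as deposited. An aligner and a peak caller were not given in the sources used, and all lists share 1 control file. The lists hold no read totals, so depth is unknown and intervals cover counting error only. The ce10 lists were not used.

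Peaks were joined to the Ensembl annotation and the RefSeq genome with Python 3.11.15, numpy 2.4.6, pandas 2.3.3, scipy 1.17.1 and matplotlib 3.10.9. A summit within 250 bp of a gene counted, and the highest signal ranked genes. Shares carry Wilson 95% intervals. No significance test was made. The window, distance and motif searches were tested on simulated data. The members, the gene lists and the motifs were chosen with earlier results of these data known.

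Genes named are the 12 highest members, the 5 highest of each position, those nearest each limit, those with 2 or more optimal peaks or without a peak in 1 replicate, the protein-coding hosts of these genes, and the listed pathway genes with a peak. C05D2.15, F55A11.10, F30H5.4, F54E7.10, F28D1.13, D2021.6, ZK643.9, C46C2.8, T04A8.17, C18D1.21 (tied at its limit) and the genes with a pair outside the optimal list were named after their values were seen. Alternatives changed the window, the list, the replicate, the motif letters and the genes left out.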

Additional observations from a re-analysis of the deposited data

How the results depend on the processing

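Of 158 alternative values 130 moved by less than their interval or count limit and 28 moved further. A change of direction could be scored only for the median summit position of the optimal-peak genes, which stayed upstream under each alternative. Counts and shares have no direction to change. The count of optimal-peak genes moved with no alternative beyond 1.5 times. Using only the 1000 highest pooled peaks left 52 members, with shares of 14.7% in same-strand introns, 21.4% in opposite-strand introns, 11.4% overlapping and 15.3% intergenic. A window of 100 bp gave 24.7% in same-strand introns and 32.3% intergenic, and 500 bp gave 48.7% and 56.5%. Across the replicate lists alone the same-strand share ranged from 26.7% to 39.3%. Stricter B box letters (GTTCGANNC) gave 37.2% in optimal-peak genes, 2.33% in lower-peak genes and 2.77% in genes without a peak, and 8.67%, 0%, 2.27% and 8.06% by position. Looser letters (GNTCNANNC) gave 69.8%, 29.1% and 29.0%. Alternatives added after seeing the data were the pair with stricter letters (32.6% and 1.16%), the pair with 1 letter changed (72.1%, 10.5% and 5.53%), the run of 5 T (69.8%, 32.6% and 24.0%), the pair with looser letters (55.8%, 6.98% and 2.30%), the pair away from tRNA, snRNA and rRNA genes or away from protein-coding starts (59.4%, 5.00% and 1.26% for the latter), the pair and TTTT by either replicate's highest peaks, and leaving out C51F7.4. The letters themselves set these shares, since stricter letters match fewer sequences. No paired analysis was possible because the samples form 1 group. Depth is unknown, so no share could be judged against it.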
